A study of Mus musculus with 6 samples.

Results

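The genes described here encode the extracellular side of WNT signalling, namely the WNT ligands (Wnt), the Frizzled receptors (Fzd) and the secreted antagonists of the sFRP (Sfrp) and Dickkopf (Dkk) families. They are every row of the expression table that carries a Wnt, Fzd, Sfrp1 to Sfrp5 or Dkk1 to Dkk4 symbol. The rule uses the symbol alone, but it was chosen with earlier results of these data known. This rule gave 37 genes of the 36870 distinct symbols in the table, made up of 19 Wnt, 10 Fzd, 4 Sfrp and 4 Dkk genes. The third sFRP is listed as Frzb and is described with the other secreted modulators.

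WNT ligands are lipid-modified secreted proteins that bind the cysteine-rich domain of Frizzled receptors. With the co-receptors Lrp5 or Lrp6 they stabilize beta-catenin, which acts with TCF/LEF factors in the nucleus, whereas with Ror2, Ryk or Ptk7 they act without beta-catenin. The sFRPs resemble the Frizzled cysteine-rich domain and bind WNT ligands outside the cell, and the classical Dickkopf proteins bind Lrp5 and Lrp6. In bone marrow stroma, WNT signalling is known for favouring osteoblast over adipocyte differentiation.

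The study compared RNA of bone marrow mesenchymal stem cells (BMMSCs) from C57BL/6 mice after siRNA against the cytosine dioxygenases Tet1 and Tet2 with RNA of control cells, to find genes that depend on these enzymes. BMMSCs are the cells of flushed femur and tibia marrow that adhere to plastic and grow in medium with serum. The 3 Control libraries and the 3 siTet1/Tet2 libraries share this strain and this culture. The labels give passage 2 and control siRNA without a target, whereas the methods give passage 1 and describe the sequenced controls as vehicle, although they too name non-targeting siRNA as the control of the knockdowns. Neither says how long the siRNA acted, or whether the 3 samples of a group came from separate mice or cultures, so the p-values below measure the spread between these samples, which may be technical.

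Values are RPKM (reads divided by transcript length and library size), so that genes can be compared with each other per length, and every list of 6 values below runs from replicate 1 to 3 within each group. Low values implied about 32400000 to 38600000 counted reads per library. The targeted Tet2 measured 2.57, 4.08 and 3.71 RPKM in the Control libraries and 0.358, 0.238 and 0.202 RPKM in the siTet1/Tet2 libraries, whereas Tet1 was at 0.032 to 0.098 RPKM in the Control and at most 0.01 RPKM in the siTet1/Tet2 libraries, under the level at which genes were tested here. The labelled cell type was checked against its markers. The 7 positive surface markers of BMMSCs summed to 209 to 235 RPKM in the Control and 30.3 to 46.5 RPKM in the siTet1/Tet2 libraries, a 5.47-fold lower mean, and 4 of 6 tested were lower, with Ly6a at 152 and 16.4 RPKM and Thy1 near 0 in both groups (0.061 and 0.059 RPKM). Of the 2 markers such cells should lack, Cd34 was at 1.1 and 1.14 RPKM and Ptprc (CD45) at 52.6 RPKM in Control and 53.04 RPKM in siTet1/Tet2 libraries. A list of 27 stromal markers summed to 5339 to 6082 RPKM in the Control and 2082 to 2678 RPKM in the siTet1/Tet2 libraries, and 21 of its 24 tested genes were lower, with Col1a1 at 488 ± 144 and 72.1 ± 28.5 RPKM (SD, n = 3). A list of 20 macrophage markers summed to 11466 to 14746 RPKM in the Control and 20098 to 23484 RPKM in the siTet1/Tet2 libraries, with 9 genes higher and 4 lower and Lyz2 at 3547 to 5013 RPKM in the Control and 9842 to 12728 RPKM in the siTet1/Tet2 libraries. Lists of osteoclast markers (68.4 to 75.4 RPKM in Control, 156 to 174 RPKM in siTet1/Tet2 libraries), adipocyte markers (1100 to 1267 and 1780 to 1957 RPKM), granulocyte markers (3.402 to 3.54 and 9.27 to 16.2 RPKM), lymphocyte markers (2.81 to 3.6 and 8.93 to 9.69 RPKM) and endothelial markers (4.27 to 5.04 and 7.34 to 7.75 RPKM) summed higher, and osteoblast and osteocyte markers lower (2341 to 2376 and 1871 to 2107 RPKM). Single genes of these lists did not all follow the sums. Called higher were 3 of 5 tested osteoclast, 5 of 7 adipocyte, 1 of 2 granulocyte, 2 of 2 lymphocyte and 2 of 5 endothelial markers. Called lower were 0 osteoclast, 1 adipocyte, 1 granulocyte, 0 lymphocyte and 2 endothelial markers. Of 9 tested osteoblast and osteocyte markers, 5 were lower and 1 higher. The T cell marker Cd3e was at 0.018 RPKM or less in all 6 libraries. These lists moved with the results below, and their part in those results was not tested. In bulk RNA, fewer cells of a type and less RNA per cell cannot be told apart.

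Of the 37 genes, 19 reached a mean of 0.1 RPKM over the 6 libraries and were tested by limma on log2(RPKM + 1) among 13266 genes, with Benjamini-Hochberg adjustment over all of them (every adjusted p below is of this kind). Of these 19 genes, 12 were lower in siTet1/Tet2 cells at an adjusted p under 0.05, 0 were higher and 7 were not called. Among all genes tested, 29.8% were called lower and 14.7% higher. The share of the tested WNT genes called lower was 63.2%, and their median log2 fold change was -0.29 against -0.09 over all genes tested. No WNT gene was called higher by limma, and 0 of the 7 genes not called were higher at an unadjusted p under 0.05. Of the 19 tested genes, 13 had every siTet1/Tet2 library below every Control library, which held for 35.9% of all genes tested. At an unadjusted p under 0.05 and a fold over 2 on the log2(RPKM + 1) scale, 5 of them were lower, a rule that 5.63% of all genes tested met. Of the 19 genes, 17 reached 0.1 RPKM in both groups, while Fzd3 and Wnt4 passed through the Control libraries alone. Since 1 is added to each RPKM before taking logs, log2 fold changes come out too small for genes near or below 1 RPKM, and the fold between the deposited group means is therefore given as well.

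**Figure D1:**
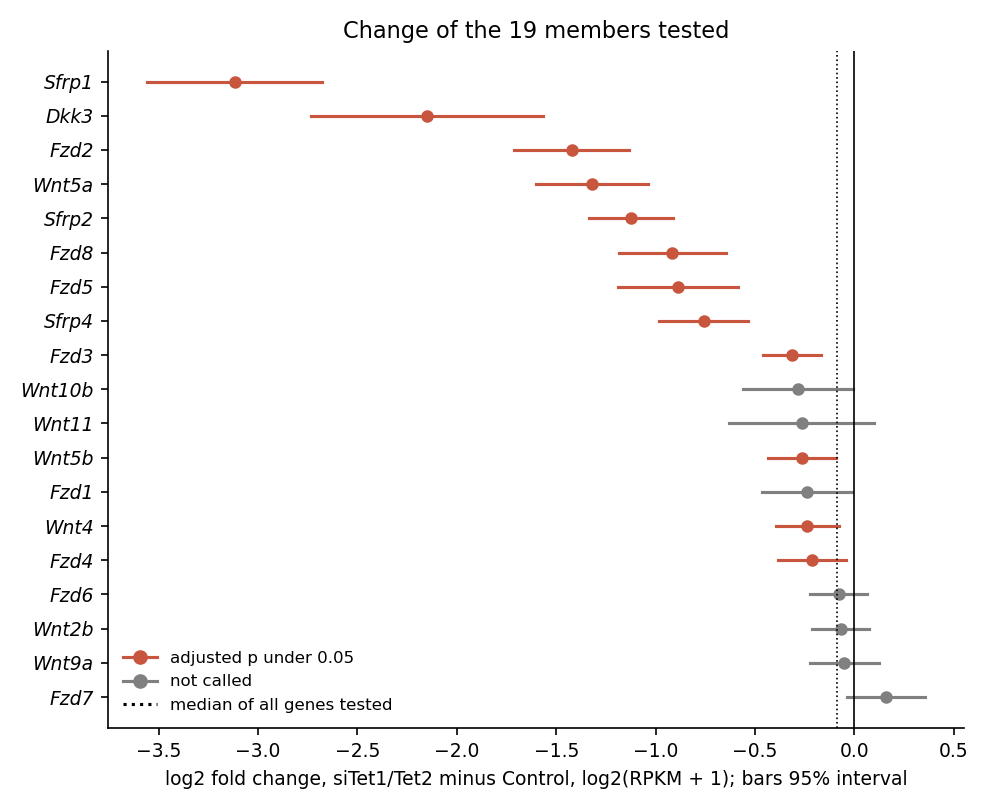
Log2 fold change of the 19 tested WNT genes, siTet1/Tet2 minus Control, on the log2(RPKM + 1) scale (horizontal axis, bars 95% intervals of limma, n = 3 libraries in each group). The 12 genes called lower run from Sfrp1 at -3.12 to Fzd4 at -0.21, and Fzd7 at 0.16 is the one estimate above 0. Relative to the stromal marker list 15 of the 19 estimates lie above 0, but there the median of all genes tested is 1.82.

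Because Tet1 and Tet2 oxidize methylated cytosine in CG dinucleotides, the CG content of the promoters is given for the genes with a RefSeq promoter window (250 bases before to 50 bases after the start, GRCm38.p6). Methylation was not measured in these libraries. A window was matched for 25 of the 37 genes, and none for Dkk3, Dkk4, Fzd2, Fzd3, Fzd6, Fzd8, Sfrp1, Sfrp4, Wnt5a, Wnt7b, Wnt8a and Wnt10a. Of the called genes with a window, Sfrp2 and Fzd5 had the largest log2 fold changes, and they are shown with Fzd7, the most abundant Frizzled and one of 3 tested Frizzleds that were not called. The Sfrp2 window is chr3:83766071-83766370, plus strand, the Fzd5 window chr1:64737701-64738000, minus strand, and the Fzd7 window chr1:59481897-59482196, plus strand. Capitals mark CG dinucleotides, and each sequence reads 5′ to 3′ on the strand of its gene. The RefSeq start of Fzd7 lies 277 bases before the GENCODE start of the gene position given further below, so that by GENCODE the whole Fzd7 window lies upstream of the gene, whereas the Sfrp2 and Fzd5 windows hold the GENCODE start.
Sfrp2: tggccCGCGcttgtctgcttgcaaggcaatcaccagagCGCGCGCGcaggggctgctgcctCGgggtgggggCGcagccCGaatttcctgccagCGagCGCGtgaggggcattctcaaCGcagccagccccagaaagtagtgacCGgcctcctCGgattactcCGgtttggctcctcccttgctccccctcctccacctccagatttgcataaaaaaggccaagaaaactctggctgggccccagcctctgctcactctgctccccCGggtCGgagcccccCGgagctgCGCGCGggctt
Fzd5: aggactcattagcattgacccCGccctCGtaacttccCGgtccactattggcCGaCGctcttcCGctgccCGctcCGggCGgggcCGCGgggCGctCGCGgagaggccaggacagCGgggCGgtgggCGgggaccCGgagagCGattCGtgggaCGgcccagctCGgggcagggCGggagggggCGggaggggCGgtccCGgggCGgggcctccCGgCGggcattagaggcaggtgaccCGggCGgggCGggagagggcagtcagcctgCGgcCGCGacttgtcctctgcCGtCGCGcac
Fzd7: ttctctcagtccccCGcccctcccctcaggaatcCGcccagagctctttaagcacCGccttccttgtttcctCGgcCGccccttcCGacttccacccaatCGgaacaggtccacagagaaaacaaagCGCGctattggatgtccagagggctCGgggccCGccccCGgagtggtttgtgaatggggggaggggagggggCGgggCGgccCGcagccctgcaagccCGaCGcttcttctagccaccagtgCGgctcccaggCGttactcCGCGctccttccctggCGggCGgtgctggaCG

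These windows held 22 CG dinucleotides in Sfrp2, 38 in Fzd5 and 24 in Fzd7, against a median of 7 over the 32851 windows of the table. Sfrp2 had more CG dinucleotides than 76.9% of all windows, Fzd5 more than 95% and Fzd7 more than 80%. Over the 28 windows of the 25 genes the median was 26.5, with 25 windows above the median of all windows. The 7 windows of the 5 called genes had a median of 32 and ranged from 4 to 51, and the 7 windows of the 6 genes that were tested and not called had a median of 24 and ranged from 16 to 58. The ranges of the 2 sets overlap. Some windows are alternative starts of the same gene, since those with 47, 7 and 4 all belong to Wnt5b and those with 45 and 23 to Wnt11. The TCF/LEF core CTTTGA, searched on both strands, occurred in 4 of the 28 windows (14.3%), in Dkk1, Fzd1, Wnt11 and Wnt5b, and in 16% of all windows. The RUNX core TGTGGT, searched on both strands, occurred in 2 of the 28 windows (7.14%), in Dkk1 and Sfrp5, and in 16.8% of all windows. Neither core was in the 3 windows shown.

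The sFRPs, which sequester WNT ligands, gave the largest change, and all 3 tested were lower. Relative to the stromal list described further below Sfrp4 turned positive, but there the median of all genes tested was 1.82. Sfrp1 (chr8:23411502-23449632, plus strand, GRCm38) measured 16.9, 16.3 and 21.6 RPKM in the Control libraries and 0.623, 1.5 and 1.62 RPKM in the siTet1/Tet2 libraries. All 3 siTet1/Tet2 values lay far below the lowest Control value, and the library with the highest Control value was replicate 3. The group means went from 18.2 ± 2.94 to 1.25 ± 0.546 RPKM (SD, n = 3), a 14.6-fold lower level (log2 fold change -3.12, SE 0.19, 95% interval -3.56 to -2.68, limma adjusted p = 1.25e-05). Among the 13266 genes tested it ranked 36 from the most negative log2 fold change. Sfrp2 (chr3:83766321-83774316, plus strand) measured 1.81, 1.41 and 1.98 RPKM in the Control libraries and 0.22, 0.245 and 0.286 RPKM in the siTet1/Tet2 libraries, which separates the groups completely. Its mean was 6.92-fold lower (log2 fold change -1.12, SE 0.09, 95% interval -1.33 to -0.91, limma adjusted p = 4.5e-05). Sfrp4 (chr13:19623104-19632994, plus strand) measured 1.72, 1.67 and 1.56 RPKM in the Control libraries and 0.531, 0.41 and 0.784 RPKM in the siTet1/Tet2 libraries. Its groups did not overlap either, and its mean was 2.87-fold lower (log2 fold change -0.76, SE 0.10, 95% interval -0.98 to -0.53, limma adjusted p = 0.000439). Sfrp5 stayed between 0.001 and 0.068 RPKM in all 6 libraries and was not tested. Together the 4 Sfrp genes summed to 20.4, 19.4 and 25.2 RPKM in the Control and 1.4, 2.23 and 2.69 RPKM in the siTet1/Tet2 libraries, a 10.3-fold lower sum in the deposited scaling. Sfrp1 made up 84.1% ± 1.58 of this sum in Control and 57.4% ± 11.8 (SD, n = 3) in siTet1/Tet2 cells. With 3 libraries against 3, an exact permutation test on such a single value cannot give a p below 0.1, so sums and shares are described without a call.

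Dkk3 was the most abundant secreted antagonist in Control cells. It is the divergent member of its family, without the established Lrp6 antagonism of Dkk1. Dkk3 (chr7:112116017-112159057, minus strand) measured 32.8, 28.2 and 35.1 RPKM in the Control libraries and 3.96, 6.31 and 10.2 RPKM in the siTet1/Tet2 libraries. Every siTet1/Tet2 library was below every Control library, with replicate 3 the highest of its group on both sides. The mean was 4.69-fold lower (log2 fold change -2.15, SE 0.25, 95% interval -2.73 to -1.57, limma adjusted p = 0.000269). Dkk1 and Dkk4, which bind Lrp6 and are classical inhibitors, were at or near the lowest listed value of 0.001 RPKM, with Dkk4 at that value in all 6 libraries and Dkk1 above it in Control replicate 1 alone. Dkk2 ranged from 0.021 to 0.128 RPKM over the 6 libraries. Dkk3 held 99.7% of the summed Dkk RPKM in Control and 99.2% in siTet1/Tet2 cells.

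**Figure D2:**
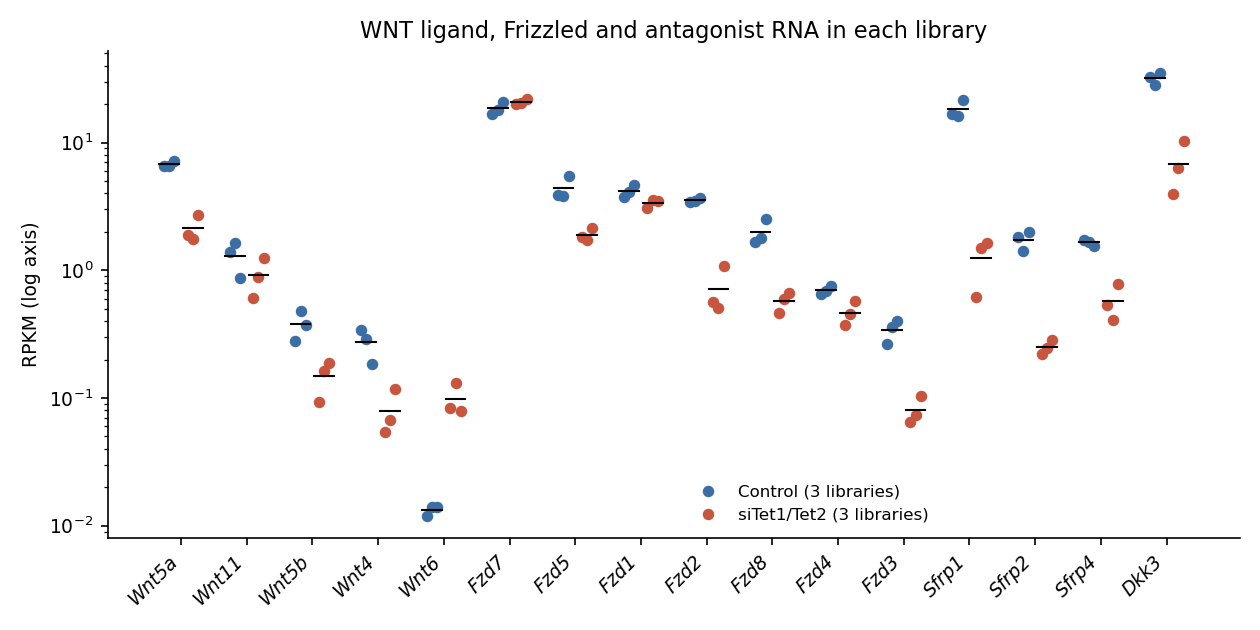
RPKM (log axis) of the 15 WNT genes that were called or had a group mean of at least 1 RPKM, and of Wnt6, in each of the 3 Control and 3 siTet1/Tet2 libraries (points), with group means (black lines). Sfrp1, Sfrp2, Dkk3, Wnt5a and Fzd2 separate completely downwards in the deposited scaling, and Fzd7 and Wnt11 overlap. Wnt6 is the one gene with all siTet1/Tet2 points above all Control points. Relative to the stromal marker list Wnt5a lies at 0.45 log2 units and is not called (limma adjusted p = 0.0659), and there the median of all genes tested is 1.82.

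Among the ligands, Wnt5a, which acts mostly without beta-catenin through receptors such as Ror2, was the most abundant. Wnt5a (chr14:28504750-28527448, plus strand) measured 6.53, 6.54 and 7.19 RPKM in the Control libraries and 1.9, 1.77 and 2.71 RPKM in the siTet1/Tet2 libraries. The highest siTet1/Tet2 library, replicate 3, was well below the lowest Control library, replicate 1. The mean was 3.17-fold lower (log2 fold change -1.32, SE 0.12, 95% interval -1.60 to -1.04, limma adjusted p = 8.23e-05). Its close relative Wnt5b measured 0.281, 0.481 and 0.376 RPKM in the Control libraries and 0.093, 0.162 and 0.189 RPKM in the siTet1/Tet2 libraries. These groups did not overlap (2.56-fold lower mean, log2 fold change -0.26, SE 0.07, 95% interval -0.43 to -0.09, limma adjusted p = 0.0208), but the call was lost without Control replicate 2 (limma adjusted p = 0.0711), without siTet1/Tet2 replicate 1 (0.0793) and without siTet1/Tet2 replicate 2 (0.056). Wnt4, a ligand used in kidney and gonad development and described as bone-forming, measured 0.341, 0.291 and 0.185 RPKM in the Control libraries and 0.054, 0.067 and 0.118 RPKM in the siTet1/Tet2 libraries. Its highest siTet1/Tet2 library, replicate 3, lay below its lowest Control library, also replicate 3 (3.42-fold lower mean, log2 fold change -0.24, SE 0.07, 95% interval -0.39 to -0.08, limma adjusted p = 0.0229). The Wnt4 call was lost without Control replicate 1 (limma adjusted p = 0.0676), Control replicate 2 (0.0681), siTet1/Tet2 replicate 1 (0.0788) or siTet1/Tet2 replicate 2 (0.0746). With quantile normalization neither Wnt5b (limma adjusted p = 0.122) nor Wnt4 (0.0875) was called. Wnt5b and Wnt4 rest on few reads, an estimated 92 and 120 over the 3 Control libraries.

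Wnt11, another ligand that acts mostly without beta-catenin, measured 1.39, 1.65 and 0.872 RPKM in the Control libraries and 0.602, 0.882 and 1.26 RPKM in the siTet1/Tet2 libraries. The lowest Control library and the highest siTet1/Tet2 library were both replicate 3, so that the groups overlapped and the difference was not called (log2 fold change -0.27, SE 0.16, 95% interval -0.63 to 0.10, limma adjusted p = 0.206). Without Control replicate 3 it was -0.41 with a limma adjusted p of 0.049. Wnt10b, which favours osteoblasts over adipocytes in marrow, ranged from 0.467 to 0.996 RPKM in Control and from 0.283 to 0.472 RPKM in siTet1/Tet2 libraries. It was not called (log2 fold change -0.29, limma adjusted p = 0.087), but pairing libraries of the same replicate number gave a limma adjusted p of 0.0215, and leaving out Control replicate 1 gave 0.0458. Wnt9a, at 0.383 to 0.61 RPKM over the 6 libraries (log2 fold change -0.05, limma adjusted p = 0.613), and Wnt2b, at 0.079 to 0.201 RPKM (log2 fold change -0.07, limma adjusted p = 0.407), overlapped between the groups. The 19 Wnt genes together summed to 9.9, 10.1 and 10.3 RPKM in Control and 3.6, 3.94 and 5.61 RPKM in siTet1/Tet2 libraries. Wnt5a gave 66.7% ± 2.58 of this sum in Control and 48.7% ± 4.04 in siTet1/Tet2 cells (SD, n = 3), with no overlap, and a share within a family does not depend on how a library is scaled. The share of Wnt11 was 12.9% ± 4.03 in Control and 20.5% ± 3.26 in siTet1/Tet2 cells (SD, n = 3).

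The remaining 12 ligand genes stayed under the tested level. Wnt3, Wnt3a and Wnt7a, classical activators of beta-catenin, were at the lowest listed value of 0.001 RPKM in all 6 libraries, which together with Dkk4 makes 4 of the 37 genes. Wnt1, Wnt2, Wnt7b, Wnt8a, Wnt8b, Wnt9b, Wnt10a and Wnt16 were at 0.038 RPKM or less in every library, levels that correspond to an estimated 5 reads or fewer in a group of 3 libraries. A difference in these genes was not detectable at this depth. Wnt6 is singled out here after its values were seen. It measured 0.012, 0.014 and 0.014 RPKM in the Control libraries and 0.084, 0.132 and 0.079 RPKM in the siTet1/Tet2 libraries, the only one of the 37 genes with every siTet1/Tet2 library above every Control library. These values stand for an estimated 3 reads over the Control libraries and 24 over the siTet1/Tet2 libraries. Tested without the filter on low values, its limma adjusted p was 0.0392. Fzd10 and Fzd9 were also untested, the former at no more than 0.019 RPKM and the latter at 0.088 to 0.189 RPKM in Control and 0.001 to 0.049 RPKM in siTet1/Tet2 libraries, without overlap.

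**Figure D3:**
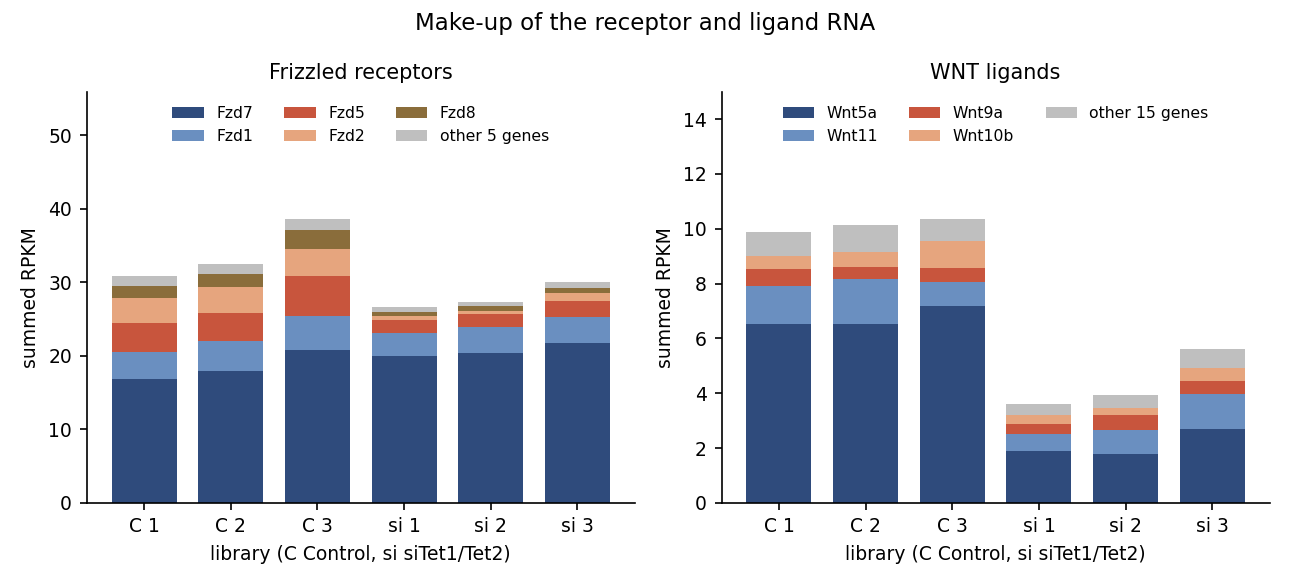
Summed RPKM of the 10 Frizzled genes (left) and the 19 Wnt genes (right) in each library (C, Control; si, siTet1/Tet2), stacked by gene. The Fzd7 segment lies between 16.8 and 21.8 RPKM in all 6 bars. The other 9 Frizzled genes together take 14.1 to 17.8 RPKM in Control and 6.57 to 8.24 RPKM in siTet1/Tet2 bars. The Wnt5a segment is lower in the siTet1/Tet2 bars in the deposited scaling. Relative to the stromal marker list the Fzd5, Fzd8, Fzd1 and Wnt5a estimates turn positive, but there the median of all genes tested is 1.82.

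The Frizzled receptors did not move together. Fzd7 (chr1:59482424-59486955, plus strand), a receptor of several ligands that is used in stem cells of other tissues, was the most abundant in both groups and measured 16.8, 17.9 and 20.7 RPKM in the Control libraries and 20.03, 20.3 and 21.8 RPKM in the siTet1/Tet2 libraries. The Control range reached into the siTet1/Tet2 range through Control replicate 3, and the difference was not called (log2 fold change 0.16, SE 0.09, 95% interval -0.04 to 0.36, limma adjusted p = 0.165). Without Control replicate 3 the log2 fold change was 0.24 with a limma adjusted p of 0.0206, and with median ratio scaling it was 0.27 with 0.0244. Fzd1 measured 3.78, 4.09 and 4.64 RPKM in the Control libraries and 3.07, 3.57 and 3.51 RPKM in the siTet1/Tet2 libraries. The groups did not overlap, but the difference was small (a 1.23-fold lower mean) and was not called (log2 fold change -0.24, SE 0.10, 95% interval -0.46 to -0.01, limma adjusted p = 0.0827), whereas pairing libraries of the same replicate number gave a limma adjusted p of 0.0482.

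Fzd2, Fzd5, Fzd8, Fzd3 and Fzd4 were lower in the deposited scaling. Relative to the stromal list Fzd5 (0.79), Fzd8 (0.24), Fzd3 (0.0212) and Fzd4 (0.60) turned positive, but there the median of all genes tested was 1.82. Fzd2 (chr11:102604396-102608058, plus strand), a receptor of Wnt5a, measured 3.43, 3.5 and 3.71 RPKM in the Control libraries and 0.565, 0.505 and 1.07 RPKM in the siTet1/Tet2 libraries. The mean was 4.97-fold lower without overlap (log2 fold change -1.42, SE 0.13, 95% interval -1.71 to -1.13, limma adjusted p = 6.55e-05). Fzd5, another receptor of Wnt5a, measured 3.9, 3.82 and 5.48 RPKM in the Control libraries and 1.82, 1.73 and 2.16 RPKM in the siTet1/Tet2 libraries. Its groups were also apart, with a 2.31-fold lower mean (log2 fold change -0.89, SE 0.13, 95% interval -1.19 to -0.58, limma adjusted p = 0.000909). Fzd8, which signals with Lrp6 to beta-catenin, measured 1.66, 1.79 and 2.53 RPKM in the Control libraries and 0.465, 0.594 and 0.665 RPKM in the siTet1/Tet2 libraries. Its mean was 3.47-fold lower, again without overlap (log2 fold change -0.92, SE 0.12, 95% interval -1.19 to -0.65, limma adjusted p = 0.000414). Fzd3, a receptor of axon guidance and planar polarity, measured 0.267, 0.361 and 0.401 RPKM in the Control libraries and 0.065, 0.073 and 0.104 RPKM in the siTet1/Tet2 libraries. It was 4.25-fold lower in the mean (log2 fold change -0.31, SE 0.06, 95% interval -0.46 to -0.17, limma adjusted p = 0.00468), and its siTet1/Tet2 mean lay under the tested level. Fzd4, the receptor of Norrin in retinal vessels, measured 0.653, 0.683 and 0.752 RPKM in the Control libraries and 0.37, 0.451 and 0.576 RPKM in the siTet1/Tet2 libraries. The groups did not overlap and the mean was 1.49-fold lower (log2 fold change -0.21, SE 0.08, 95% interval -0.39 to -0.04, limma adjusted p = 0.0493), but the call was lost when any one library other than siTet1/Tet2 replicate 3 was left out, with limma adjusted p-values from 0.0727 without Control replicate 1 to 0.167 without siTet1/Tet2 replicate 1. The Fzd4 call was also lost with pseudocounts of 0.1 (limma adjusted p = 0.067) and 0.01 (0.0781), with scaling to the same sum (0.0544), median ratio scaling (0.0896) and quantile normalization (0.795). Fzd6 lay between 0.104 and 0.234 RPKM and overlapped (log2 fold change -0.08, limma adjusted p = 0.33).

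The make-up of the Frizzled RNA differed between the groups. The 10 Fzd genes summed to 30.9, 32.4 and 38.5 RPKM in Control and 26.6, 27.4 and 30.04 RPKM in siTet1/Tet2 libraries, a 1.21-fold lower mean. Without Fzd7 the sum of the other 9 genes was 2.13-fold lower in the deposited scaling. Fzd7 took 54.4, 55.3 and 53.8% of the Frizzled RPKM in the Control and 75.3, 74.3 and 72.6% in the siTet1/Tet2 libraries, and the share of Fzd2 went from 10.5% ± 0.778 to 2.51% ± 0.925 (SD, n = 3). The share of Fzd1 was 12.3% and 12.1%, with overlap.

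Stromal genes fell in the same libraries, so the WNT genes were also tested after each library was scaled by the median of the stromal list. On this scale a value says how a gene moved relative to stromal genes, and over all genes the median log2 fold change was 1.82. All genes of a library were divided by the same factor (2.17, 2.02 and 2.39 in Control, 0.335, 0.461 and 0.617 in siTet1/Tet2 libraries). Any error of these factors is shared by all genes, and limma does not account for it. The p-values on this scale, here and below, may therefore be too small. Sfrp1 was the only one of the 12 genes still called lower (-1.39, limma adjusted p = 6.42e-08), as were 1.11% of all genes tested. Dkk3 (-0.0662, limma adjusted p = 0.823), Fzd2 (-0.0752, 0.679) and Sfrp2 (-0.21, 0.121) were not called relative to stromal genes. As 1 is added after this scaling too, estimates of genes near or below 1 RPKM, such as Sfrp2, come out too small. Relative to the same list 10 of the 19 genes were called higher, among them Fzd7 (2.30, limma adjusted p = 4.88e-15) and Fzd1 (1.53, 4.73e-10), as were 91% of all genes tested. Wnt5a was at 0.45 and not called (limma adjusted p = 0.0659).

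**Figure D4:**
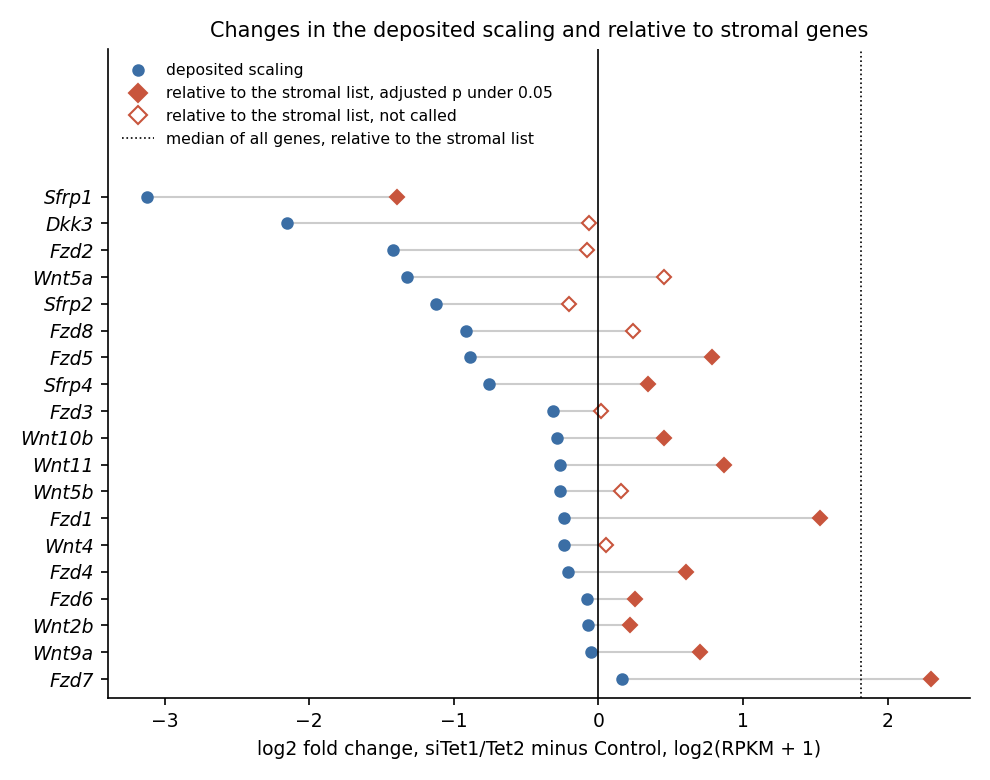
Log2 fold change (siTet1/Tet2 minus Control, log2(RPKM + 1) scale) of the 19 tested WNT genes in the deposited scaling (circles) and relative to the stromal marker list (diamonds, filled where called). Relative to stromal genes only Sfrp1 is called lower at -1.39, Dkk3 and Fzd2 lie near 0, Sfrp2 lies at -0.21, and Fzd7 is the one gene to the right of the median of all genes at 1.82 (dotted line).

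The rest of the WNT pathway was read from 8 lists with 121 distinct genes, of which 106 were tested. By limma, 47 of them (44.3%) were lower and 7 (6.6%) higher, and their median log2 fold change was -0.26, against 29.8% lower, 14.7% higher and a median of -0.09 over all genes tested. Some genes called lower, such as Frzb, Axin2 and Pygo1, reached the tested level through the Control libraries alone. The share called lower was 83.3% in the list of secreted modulators, which also holds the membrane inhibitor Tpbg. Also above 29.8% were the shares of co-receptors (75%), target genes (58.3%), Kremen and R-spondin receptors (50%) and planar polarity (47.8%). Below it were those of lipidation and secretion (28.6%), TCF/LEF factors (25%) and the destruction complex (17.4%). At the cell surface, 6 of 8 tested co-receptors and relatives were lower and 0 higher. Ryk, a WNT receptor with an extracellular WIF domain, went from 23.5 ± 1.43 to 7.04 ± 0.972 RPKM (log2 fold change -1.61, limma adjusted p = 1.41e-05). Ptk7, a planar polarity receptor, went from 21.3 ± 2.05 to 4.9 ± 1.35 RPKM (log2 fold change -1.94, limma adjusted p = 4.68e-05). Gpr124, which with Reck presents Wnt7 ligands to Frizzled, went from 6.01 ± 0.306 to 1.49 ± 0.382 RPKM (log2 fold change -1.50, limma adjusted p = 3.87e-05). These 3 genes separated the groups completely. Smo, the Frizzled relative of Hedgehog signalling, went from 11.005 ± 0.808 to 6.38 ± 0.526 RPKM (log2 fold change -0.70, limma adjusted p = 0.000405). The other 2 genes called lower were Ror2, the main receptor of Wnt5a (1.5 to 0.305 RPKM, log2 fold change -0.94, limma adjusted p = 0.000132), and Reck (log2 fold change -0.86, limma adjusted p = 0.00167). The 2 that were not called were the beta-catenin co-receptors. Lrp5 measured 19.8, 19.02 and 23.4 RPKM in the Control libraries and 19.6, 21.3 and 22.5 RPKM in the siTet1/Tet2 libraries, which overlap (log2 fold change 0.03, limma adjusted p = 0.823). Lrp6 measured 11.7, 12.4 and 15.7 RPKM in the Control libraries and 16.1, 15.5 and 18.8 RPKM in the siTet1/Tet2 libraries. It was just outside the call (log2 fold change 0.33, limma adjusted p = 0.0509), with a limma adjusted p of 0.00573 when libraries of the same replicate number were paired, 0.00554 without Control replicate 3, 0.0118 after median ratio scaling and 0.0105 after quantile normalization. Relative to the stromal list, Ryk (0.48), Ptk7 (0.0960), Gpr124 (0.16), Smo (1.31) and Reck (0.36) were above 0 and Ror2 was not called (-0.0584, limma adjusted p = 0.665).

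In the list of other secreted modulators, which also holds the membrane inhibitor Tpbg, 5 of 6 tested genes were lower and 0 higher. The R-spondins, which raise the level of Frizzled receptors at the surface through Lgr receptors and the ligases Znrf3 and Rnf43, had the largest changes. Rspo2 measured 17.9, 15.7 and 21.3 RPKM in the Control libraries and 0.749, 1.72 and 2.92 RPKM in the siTet1/Tet2 libraries, a 10.2-fold lower mean (log2 fold change -2.85, SE 0.26, 95% interval -3.45 to -2.25, limma adjusted p = 7.55e-05). Rspo3 measured 3.03, 2.58 and 3.04 RPKM in the Control libraries and 0.271, 0.205 and 0.353 RPKM in the siTet1/Tet2 libraries, a 10.4-fold lower mean (log2 fold change -1.61, SE 0.09, 95% interval -1.80 to -1.41, limma adjusted p = 6.76e-06). Both separated the groups and, unlike most of the pathway, stayed lower relative to the stromal list (Rspo2 -1.07, limma adjusted p = 5.8e-05; Rspo3 -0.53, 0.000274). Tpbg, an inhibitor of beta-catenin signalling at the membrane, went from 1.65 to 0.381 RPKM (log2 fold change -0.94, limma adjusted p = 8.48e-05). Relative to the stromal list its log2 fold change was 0.0542 and it was not called (limma adjusted p = 0.704). The remaining 2 genes called lower, Frzb (the third sFRP) and Wif1 (a soluble WNT binder), were at 0.712 RPKM or less in every library (log2 fold change -0.50, limma adjusted p = 0.000712, and log2 fold change -0.52, limma adjusted p = 0.00145). The siTet1/Tet2 mean of Frzb, 0.0777 RPKM, lay under the tested level. Relative to the stromal list neither Frzb (-0.108, limma adjusted p = 0.302) nor Wif1 (-0.0733, 0.496) was called. Of the Kremen and R-spondin receptor list, 2 of 4 tested genes were lower, Lgr4 (log2 fold change -1.16, limma adjusted p = 0.000146) and Lgr6 (log2 fold change -0.76, limma adjusted p = 0.00221). Relative to the stromal list their log2 fold changes were 0.26 and 0.63. Of the 7 genes of lipidation and secretion 2 were lower, Wls, the carrier of WNT ligands to the surface (74.7 to 48.8 RPKM, log2 fold change -0.60, limma adjusted p = 7.07e-05), and the cargo receptor Tmed5 (42.8 to 32.2 RPKM, log2 fold change -0.40, limma adjusted p = 0.0213), and both changed sign relative to the stromal list. The Tmed5 call was lost without Control replicate 2, siTet1/Tet2 replicate 1 or siTet1/Tet2 replicate 2 (limma adjusted p = 0.0536, 0.0552 and 0.0772), and with median ratio scaling (0.0591) or quantile normalization (0.083).

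Of 23 genes of the beta-catenin destruction complex and its relay, 4 were lower, 3 higher and 16 not called. Ctnnb1, which encodes beta-catenin itself, measured 185, 187 and 180 RPKM in the Control libraries and 310, 293 and 281 RPKM in the siTet1/Tet2 libraries, and its mean was 1.6-fold higher (log2 fold change 0.67, SE 0.06, 95% interval 0.53 to 0.82, limma adjusted p = 8.8e-05). Frat2, which binds GSK3 and keeps it from beta-catenin, measured 0.727, 0.876 and 0.584 RPKM in the Control libraries and 6.001, 5.18 and 4.64 RPKM in the siTet1/Tet2 libraries. Every siTet1/Tet2 library exceeded every Control library, with a 7.24-fold higher mean (log2 fold change 1.86, SE 0.11, 95% interval 1.61 to 2.11, limma adjusted p = 9.85e-06). Its paralog Frat1, the other gene called higher, measured 0.346, 0.379 and 0.212 RPKM in the Control libraries and 1.92, 1.53 and 1.42 RPKM in the siTet1/Tet2 libraries, likewise without overlap (log2 fold change 1.00, limma adjusted p = 9.06e-05). These 3 genes were higher under every scaling tried. Csnk1a1, the priming kinase of beta-catenin (log2 fold change -0.27, limma adjusted p = 0.015), and Wtip (log2 fold change -0.37, limma adjusted p = 0.00892) were lower by small amounts and changed sign relative to the stromal list. The other 2 called lower were Csnk1g1 (log2 fold change -0.33, limma adjusted p = 0.0328) and Axin2, a scaffold of the complex and a target of the pathway. Axin2 went from 0.239 to 0.083 RPKM (log2 fold change -0.19, limma adjusted p = 0.0266), and its siTet1/Tet2 mean lay under the tested level. Relative to the stromal list the log2 fold change of Axin2 was 0.0964 and it was not called (limma adjusted p = 0.342). Of 16 TCF/LEF factors and partners, 4 were lower and 1 higher. Tcf7l1, mostly a repressor, went from 3.3 ± 0.48 to 0.702 ± 0.175 RPKM (log2 fold change -1.34, limma adjusted p = 5.44e-05). Relative to the stromal list its log2 fold change was 0.00242 and it was not called (limma adjusted p = 0.99). Ctbp2 (log2 fold change -0.36, limma adjusted p = 0.00386) and Bcl9l (log2 fold change -0.64, limma adjusted p = 0.00113) were lower and the corepressor Tle1 higher (log2 fold change 0.31, limma adjusted p = 0.012), and Ctbp2 and Bcl9l changed sign relative to the stromal list. Calls near the threshold were lost with 1 library left out, for Csnk1a1 without siTet1/Tet2 replicate 1 (limma adjusted p = 0.0659) and for Tle1 without Control replicate 2 (0.0525). Csnk1g1 lost its call without Control replicate 1 or 3 or siTet1/Tet2 replicate 1 or 2 (limma adjusted p = 0.0597 to 0.108), and Axin2 without Control replicate 1 or 2 or siTet1/Tet2 replicate 1 or 2 (0.0532 to 0.102). Other scalings also ended calls, by limma adjusted p, those of Csnk1a1 (0.137) and Csnk1g1 (0.0901) with median ratio scaling, of Csnk1a1 (0.0646), Csnk1g1 (0.127), Wtip (0.0589) and Axin2 (0.172) with quantile normalization, and of Tle1 (0.0615) with scaling to the same sum.

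Of 24 tested genes in common use as targets of WNT/beta-catenin signalling, 14 were lower and 3 higher, and most of them answer to other pathways too. Wisp2 (Ccn5), a stromal CCN protein, measured 68.6, 60.5 and 63.6 RPKM in the Control libraries and 4.83, 7.56 and 10.5 RPKM in the siTet1/Tet2 libraries, an 8.42-fold lower mean (log2 fold change -2.97, SE 0.21, 95% interval -3.45 to -2.49, limma adjusted p = 2.2e-05), and it was still lower relative to the stromal list (-0.84, limma adjusted p = 0.00356). Its relatives Cyr61 (123 to 31.2 RPKM, log2 fold change -2.00, limma adjusted p = 0.000143) and Wisp1 (5.23 to 2.11 RPKM, log2 fold change -1.02, limma adjusted p = 0.0024) were also lower. The D cyclins Ccnd1 (297 to 104 RPKM, log2 fold change -1.52, limma adjusted p = 4.34e-05) and Ccnd2 (72.6 to 19.2 RPKM, log2 fold change -1.91, limma adjusted p = 0.000201) drive entry into the cell cycle. Nkd2, a feedback inhibitor that binds Dishevelled, went from 3.64 to 0.698 RPKM (log2 fold change -1.47, limma adjusted p = 0.00015). The mesenchymal factor Twist1 (log2 fold change -1.54, limma adjusted p = 0.000461), Vegfa (log2 fold change -1.27, limma adjusted p = 0.000266) and the RANKL decoy Tnfrsf11b (log2 fold change -1.06, limma adjusted p = 0.00112) were lower too. Higher were Id2 (223 to 283 RPKM, log2 fold change 0.34, limma adjusted p = 0.0427), the adhesion receptor Cd44 (109 to 126 RPKM, log2 fold change 0.21, limma adjusted p = 0.0227) and Bambi, a decoy receptor of TGF-beta signalling (log2 fold change 0.85, limma adjusted p = 0.000731). Relative to the stromal list, Cyr61, Wisp1, Ccnd1, Ccnd2, Twist1, Vegfa and Tnfrsf11b changed sign, whereas Nkd2 did not (-0.15, limma adjusted p = 0.417). Of 23 tested genes of planar polarity and the relay without beta-catenin, 11 were lower and 0 higher, led in level by Camk2d (log2 fold change -0.39, limma adjusted p = 0.000921), Rock2 (log2 fold change -0.93, limma adjusted p = 0.0035) and Plcb3 (log2 fold change -0.27, limma adjusted p = 0.0241), all 3 of which changed sign relative to the stromal list. Id2 lost its call without Control replicate 1 or 3 or siTet1/Tet2 replicate 1 or 2 (limma adjusted p = 0.0566 to 0.147), Cd44 without any one library other than Control replicate 3 (0.0533 to 0.09), and Plcb3 without Control replicate 1 or siTet1/Tet2 replicate 1 or 2 (0.0533 to 0.0921). Plcb3 was also not called with median ratio scaling (limma adjusted p = 0.132) or quantile normalization (0.187), nor Cd44 with scaling to the same sum (0.134) or Id2 without the mean-variance trend (0.0506). Relative to the stromal list, 4 of the 106 genes outside the ligands, Frizzleds and antagonists were called lower, namely Rspo2, Rspo3, Wisp2 and Bmp4 (-0.24, limma adjusted p = 0.026). On that scale 1.11% of all genes tested were called lower.

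**Figure D5:**
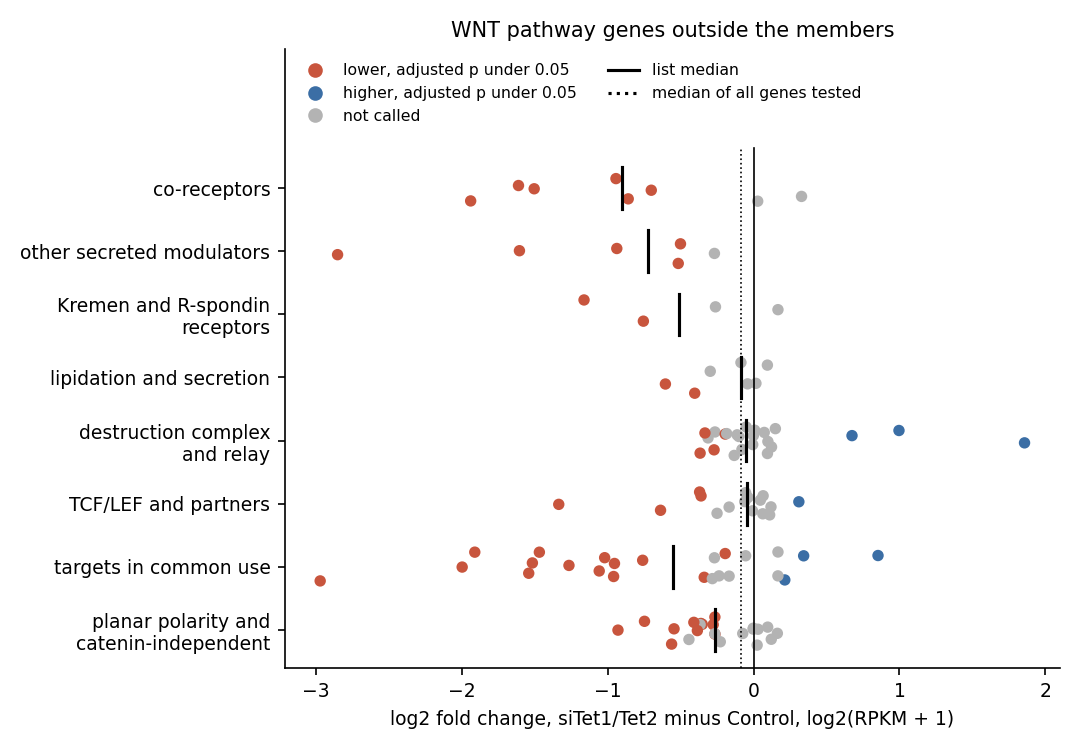
Log2 fold change (siTet1/Tet2 minus Control, log2(RPKM + 1) scale) of the tested genes of 8 WNT pathway lists outside the 37 genes, 1 point a gene, coloured by call, with list medians (black bars) and the median of all genes tested (dotted line). Co-receptors (6 of 8) and the list of secreted modulators (5 of 6) are mostly called lower. The destruction complex (4 lower, 3 higher of 23) centres near the median of all genes. Relative to the stromal marker list 84 of the 106 genes are called higher and 4 lower, against 91% and 1.11% of all genes tested.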

How the data were processed

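RNA of 3 Control and 3 siTet1/Tet2 BMMSC samples had been sequenced as paired ends. Per the file headers the deposited values are RPKM on a linear scale; the methods call the unit FPKM and state that the authors trimmed adaptors, mapped to GRCm38 and estimated abundance with DNASTAR Lasergene. Annotation and strand use are not given in the sources used here. The table has 36915 rows, with 0.001 as its lowest listed value; for 37 symbols listed more than once the row with the highest mean was used. A column with the authors' p-value of the 2 groups was not used. Low values were close to multiples of 1 read (49.9% to 55.5% within 0.1 of a whole number, against 20% by chance), so read numbers are estimates.

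Testing was by limma on log2(RPKM + 1), for all genes whose 6 libraries averaged 0.1 RPKM or more, in version 3.58.1 (R 4.3.3; moderated with a mean-variance trend, two-sided), with Benjamini-Hochberg adjustment over 13266 genes and a threshold of 0.05; tables were handled with Python 3.11.15, numpy 2.4.6 and pandas 2.3.3. On simulated data for this comparison, 186 of 200 genes changed by a log2 size of 1 and 6 of 13066 unchanged genes were called. The changed genes were drawn only from the more highly expressed genes in Control. The recovery therefore does not cover genes at low RPKM, such as Fzd3, Fzd4, Sfrp2, Wnt4 and Wnt5b. Gene positions are from GENCODE M21. Libraries correlated at 0.992 to 0.997 within and 0.949 to 0.969 between groups.

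The deviations of same-numbered Control and siTet1/Tet2 libraries had positive correlations (r = 0.149, 0.117 and 0.462 for numbers 1 to 3), so the fit with the replicate number as a block is given where it changed a call. This pairing comes from the values and not from the labels. Control replicate 1 correlated more with siTet1/Tet2 replicate 2 (0.332), and Control replicate 2 more with siTet1/Tet2 replicate 1 (0.205). Only Control replicate 3 correlated most with its own number, so the pairing is uncertain. Genes given library by library had an adjusted p under 0.05 or a mean of at least 1 RPKM in either group; outside the 37 genes, each list gave the called genes with the highest mean (up to 3) and those with a fold over 2. Ror2, Reck, Lrp5, Lrp6, Frzb, Wif1, Frat1, Csnk1g1, Axin2, Bambi and Bmp4 were added after their values were seen. The 37 genes and all lists were chosen with earlier results of these data known. Alternatives were other pseudocounts, filters, scalings, variance models and call rules, the block, summed rows and each library left out.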

Additional observations from a re-analysis of the deposited data

How the results depend on the processing

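Of the 12 WNT genes called lower, 9 stayed so under every alternative that kept the call rule and still tested them, other than scaling to the stromal list, and Fzd4, Wnt4 and Wnt5b lost the call under others. The number called lower was 7 at a mean of at least 1 RPKM (fewer genes tested), 5 at an unadjusted p under 0.05 with a fold over 2, 1 with scaling to the stromal list, and 9 to 12 with one library left out. The number called higher was 0 as reported, 1 without the filter (Wnt6), 1 with median ratio scaling (Fzd7), 1 after quantile normalization (Fzd7), 10 with scaling to the stromal list and 0 to 1 with one library left out (Fzd7, without Control replicate 3). The replicate block changed the calls of Fzd1 (0.0482), Wnt10b (0.0215) and Lrp6 (0.00573) to called, by limma with Benjamini-Hochberg adjustment, and no other call of a named gene; it called 14 of the 37 genes lower. The alternatives for genes outside the 37 were chosen after seeing the data. Of these, 47 were lower as reported, 42 with median ratio scaling, 37 with quantile normalization, 32 without the filter and 4 with scaling to the stromal list, and 7 were higher as reported, 13 with median ratio scaling, 18 with quantile normalization and 84 with scaling to the stromal list.

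Over all genes the median log2 fold change was -0.09 as reported, 0.06 with quantile normalization and 1.82 with scaling to the stromal list. Of all genes tested, 29.8% were lower and 14.7% higher as reported, 22.3% and 21.5% after median ratio scaling, 19.8% and 27.2% after quantile normalization, and 1.11% and 91% with scaling to the stromal list, which by its construction sets stromal genes near 0. Scaling to the stromal list turned to positive values Fzd1 (1.53), Fzd3 (0.0212), Fzd4 (0.60), Fzd5 (0.79), Fzd6 (0.25), Fzd8 (0.24), Sfrp4 (0.34), Wnt10b (0.45), Wnt11 (0.87), Wnt2b (0.22), Wnt4 (0.0504), Wnt5a (0.45), Wnt5b (0.16), Wnt9a (0.70), Ryk (0.48), Ptk7 (0.0960), Smo (1.31), Gpr124 (0.16), Tpbg (0.0542), Lgr4 (0.26), Lgr6 (0.63), Wls (1.62), Tmed5 (1.79), Csnk1a1 (1.96), Wtip (1.65), Ctbp2 (1.77), Bcl9l (1.19), Tcf7l1 (0.00242), Ccnd1 (0.73), Cyr61 (0.22), Ccnd2 (0.28), Vegfa (0.87), Twist1 (0.18), Wisp1 (0.69), Tnfrsf11b (0.58), Camk2d (1.83), Rock2 (1.22), Plcb3 (1.87), Reck (0.36), Csnk1g1 (1.56), Axin2 (0.0964). Quantile normalization turned Fzd6 (0.0179), Wnt2b (0.0157) and Wnt9a (0.13), none of them called. Lrp5 was -0.0334 with scaling to the same sum, and with one library left out it ranged from -0.0293 to 0.11. Without the filter, Wnt5b (0.162), Wnt4 (0.111), Fzd4 (0.188) and 10 named genes outside the 37 lost their calls (limma adjusted p = 0.0509 to 0.307 for the 10), namely Lgr6, Tmed5, Csnk1a1, Id2, Cd44, Wisp1, Rock2, Plcb3, Reck and Csnk1g1. The cause of these changes was not tested. Depth limits the genes at the lowest levels, whose values stand for few reads.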
